A study of Homo sapiens with 24 samples.

Results

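The mitochondrial genome encodes its own small set of RNAs, and 37 of the 36481 genes in the deposited table belong to it. They are the genes whose names begin with MT-: 13 mRNAs, 2 rRNAs and 22 tRNAs. The rule uses the name alone and no measured value. Triplicate libraries came from the triple-negative breast cancer cell lines Hs578T and SKBR7. Each line was given 0.1% DMSO, 3.16 μM lapatinib, PHA-767491 at 1 μM, or both drugs together (co-treatment) for 6 h, which makes 8 groups of 3 and 24 libraries. Lapatinib inhibits the EGFR and HER2 receptor kinases, and PHA-767491 inhibits cdc7 and CDK9, the kinase that releases RNA polymerase II into productive elongation. Each line stands for 1 culture model, and the labels do not say whether the triplicates were separate cultures, so the p-values reflect spread among libraries that may be technical. In such bulk RNA, a changed mix of cells and a changed amount of RNA per cell cannot be told apart.

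Mitochondrial genes are not transcribed by RNA polymerase II. A dedicated polymerase, POLRMT, copies both strands of the circular genome into long precursor RNAs, and the tRNAs that lie between most of the rRNAs and mRNAs mark the places where these precursors are cut. The mRNAs encode core subunits of respiratory chain complexes I, III and IV and of ATP synthase, the rRNAs form the mitochondrial ribosome, and the tRNAs serve its translation. All other proteins of these complexes come from the nucleus.

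In the deposited coordinates (GRCh38, chromosome M, 16569 bases), 12 mRNAs, both rRNAs and 14 tRNAs lie on the plus strand, and MT-ND6 and 8 tRNAs lie on the minus strand. Positions of all 37 equalled those in the GENCODE annotation. The library kit marks strand, but the strand setting of the read counting is not given in the sources used here. Reads of a minus-strand gene and of a transcript running opposite to it therefore cannot be told apart. The tRNAs that moved in the comparison below are shown first, read from the hg38 genome 5′ to 3′ on their coding strand. Their genes are shorter than the reads, and those of MT-TN, MT-TC and MT-TY lie close together. Capitals mark the anticodon.
MT-TN (asparagine, chrM:5657-5729, minus strand): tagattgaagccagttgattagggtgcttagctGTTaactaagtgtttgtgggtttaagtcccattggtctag
MT-TC (cysteine, chrM:5761-5826, minus strand): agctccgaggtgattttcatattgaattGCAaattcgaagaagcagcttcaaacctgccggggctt
MT-TY (tyrosine, chrM:5826-5891, minus strand): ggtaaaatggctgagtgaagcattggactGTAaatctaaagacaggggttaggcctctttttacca
MT-TP (proline, chrM:15956-16023, minus strand): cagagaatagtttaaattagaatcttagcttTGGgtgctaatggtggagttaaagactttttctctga
MT-TL1 (leucine, chrM:3230-3304, plus strand): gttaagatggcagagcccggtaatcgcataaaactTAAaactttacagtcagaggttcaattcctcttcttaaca
MT-TC and MT-TY share 1 base, and 31 bases separate MT-TN from MT-TC. This spacer is where the origin of light-strand replication is known to lie, and capitals mark the inverted repeat of 8 bases that a search found in it.
Between MT-TN and MT-TC (chrM:5730-5760, minus strand): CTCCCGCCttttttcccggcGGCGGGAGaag

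Some neighbouring mRNA genes overlap on the same strand, so that a read there fits both. How the counting treated such reads is not given in the sources used here. MT-ATP8 and MT-ATP6, the ATP synthase subunits, share 46 bases, which is 22.2% of MT-ATP8 and 6.75% of MT-ATP6. MT-ND4L and MT-ND4, subunits of complex I, share 7 bases. Copies in the nuclear genome may also share reads, since MTATP6P1 is 98.5% identical to MT-ATP6 and MTND2P28 is 98.2% identical to MT-ND2, so the values of such genes are uncertain to that extent. The shared bases are in capitals below, with 15 bases on each side, to show where reads fit both genes.
MT-ATP8 and MT-ATP6 (chrM:8512-8587, plus strand): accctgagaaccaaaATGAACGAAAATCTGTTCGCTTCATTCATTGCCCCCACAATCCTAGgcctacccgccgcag
MT-ND4L and MT-ND4 (chrM:10745-10781, plus strand): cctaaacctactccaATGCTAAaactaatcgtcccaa

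The deposited values are on a log2 scale and were quantile-normalised, so each library has the same highest value, 12.852. MT-RNR2, the large rRNA, stood at that ceiling in Hs578T DMSO replicate 1 and Hs578T PHA-767491 replicate 1, and MT-CO1 stood there in SKBR7 co-treatment replicate 1, so a further rise could not have been seen. A higher value is relative to the other RNA of its library, and absolute amounts were not measured. Read numbers are not given, and the libraries listed 9967 to 23320 genes each (median 21735). All 13 mRNAs, both rRNAs and 3 tRNAs were listed in all 24 libraries, MT-TL1 and MT-TY in 23, and the other 17 tRNAs in 6 to 20, at values from -3.85 to 0.65. Of these 17, MT-TT was listed in 20 libraries, MT-TH and MT-TL2 in 19 and MT-TE in 18, and MT-TK, listed in 8, had the lowest median at -3.23.

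Some libraries stood apart. SKBR7 lapatinib replicate 2 was low in all 13 mRNAs. Hs578T DMSO replicate 1, which listed 9967 genes, and Hs578T PHA-767491 replicate 1 were high in the rRNAs, with MT-RNR1 at 12.49 and 12.68 against 8.86 to 9.60 in the other 10 Hs578T libraries. Hs578T DMSO replicate 2 and PHA-767491 replicate 3 listed 379 and 484 of 486 genes otherwise seen in SKBR7, against at most 64 in any other Hs578T library. KRT8, an epithelial keratin, was at 9.47 and 9.71 in them and at 5.08 or lower in the other Hs578T libraries, while SKBR7 ranged from 10.76 to 11.87. As labelled, the mesenchymal genes FN1 and VIM were higher in every Hs578T library than in any SKBR7 library. Of the other epithelial markers, KRT18 was at 10.06 to 10.91 in SKBR7 and 5.47 to 9.31 in Hs578T, and CDH1 was at 4.06 to 5.63 in SKBR7. In Hs578T CDH1 was at 3.66 in DMSO replicate 2, at 4.53 in PHA-767491 replicate 3 and at 0.33 or lower elsewhere. EPCAM and KRT19 were near absent in SKBR7, at -0.11 or lower, and EPCAM was highest in Hs578T PHA-767491 replicate 3, at 2.45. With SKBR7 co-treatment replicate 1, which listed 16232 genes, these make 6 libraries in doubt. SKBR7 lapatinib replicate 2 and replicate 1 of Hs578T DMSO and PHA-767491 were set apart partly by member values. Member results without them are therefore not independent of that choice.

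**Figure D1:**
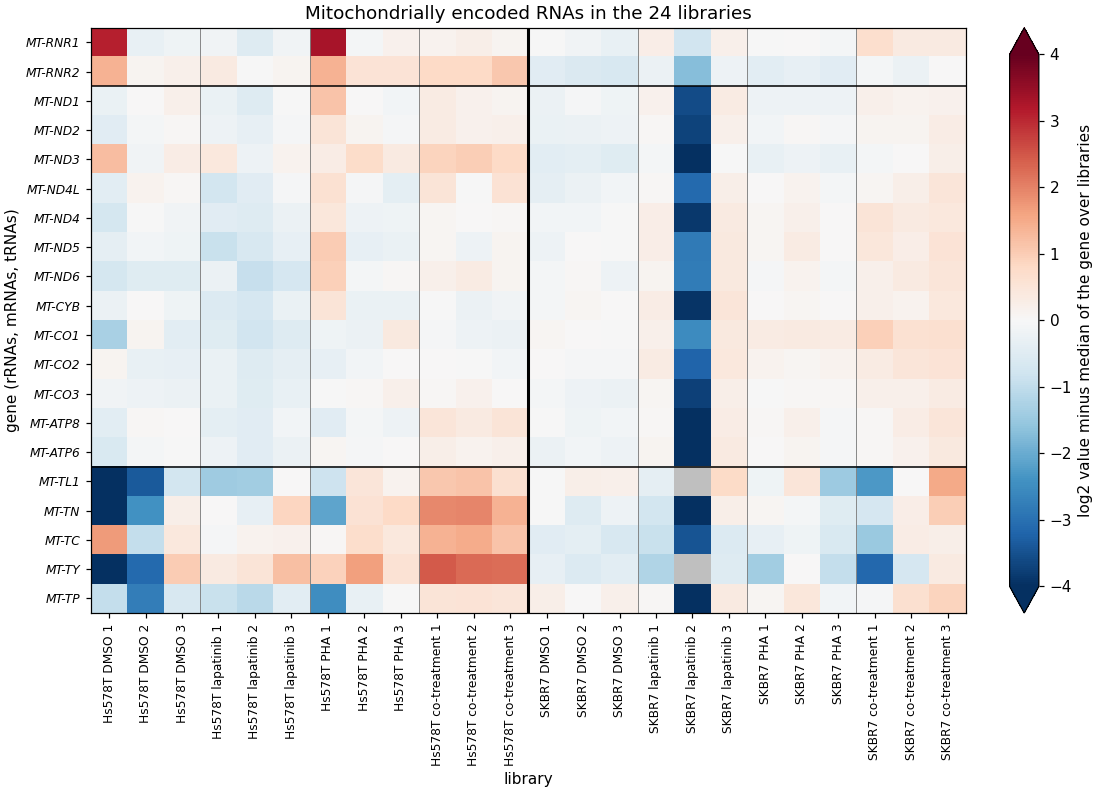
Deposited log2 value of each rRNA, mRNA and often-listed tRNA (vertical axis) in each library (horizontal axis), coloured by its difference from the gene's median over libraries, with grey where no value was listed and colours saturating at 4. SKBR7 lapatinib 2 is low in all 13 mRNAs, and Hs578T DMSO 1 and PHA 1 are high in MT-RNR1.

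Outside SKBR7 lapatinib replicate 2, 5 to 9 of the 13 mRNAs stood among the 100 highest genes, and in that library 0 did. On a linear scale, the 13 mRNAs made up 1.25% ± 0.05 (SD, n = 3) of the summed values in Hs578T under lapatinib and 1.48% ± 0.03 in SKBR7 under DMSO. These shares come from quantile-normalised values and are not shares of reads.

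Levels were compared between genes only after dividing by gene length (log2 value per kilobase, mean ± SD of 3 libraries). The libraries were made with an mRNA kit, which may not capture the rRNAs, the tRNAs and each mRNA alike. Capture was not tested, so the order below is that of captured RNA. MT-CO2 and MT-CO3, core subunits of cytochrome c oxidase (complex IV), were the highest in both lines. In Hs578T under lapatinib MT-CO2 was at 11.55 ± 0.12 and MT-CO3 at 11.47 ± 0.12 per kilobase. Their gap is below the SD of either gene between libraries, but both were measured in the same libraries and their paired difference was not tested. MT-RNR2 came next there at 10.96 ± 0.20, but in SKBR7 under DMSO (10.26 ± 0.10) it was below MT-CO1, MT-ATP6 and MT-ND4 as well. The order ended with complex I subunits. MT-ND5 (8.09 ± 0.29) and MT-ND6 (8.04 ± 0.35) were the lowest in Hs578T under lapatinib, and neither could be placed below the other. They were also the lowest in SKBR7 under DMSO, at 8.64 ± 0.11 and 8.58 ± 0.13.

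**Figure D2:**
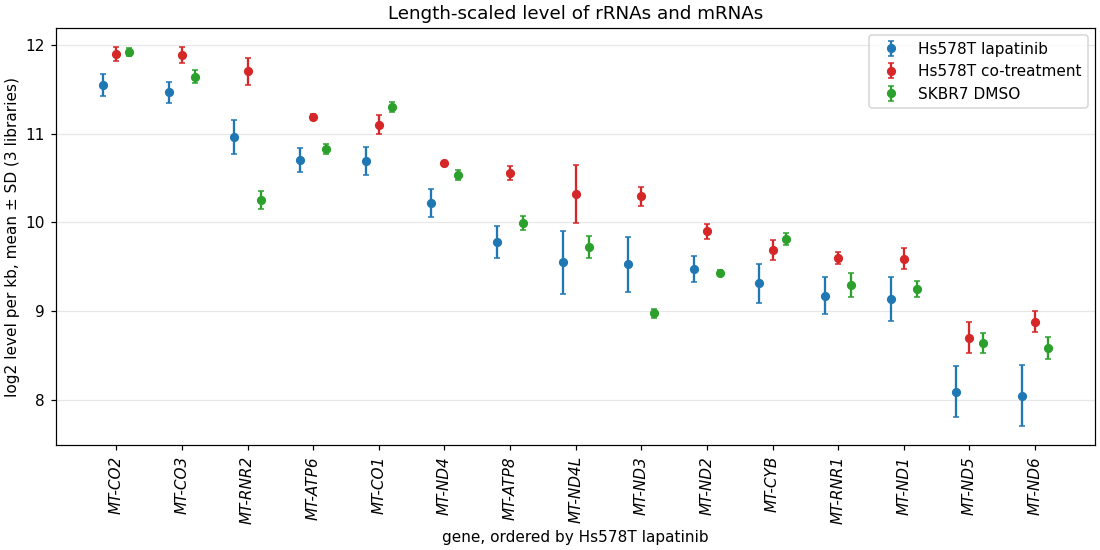
Level per kilobase of gene length (log2, mean ± SD of 3 libraries) of the rRNAs and mRNAs in Hs578T under lapatinib and co-treatment and in SKBR7 under DMSO, ordered by the first of these. MT-CO2 and MT-CO3 are at the top, MT-ND5 and MT-ND6 at the bottom, and MT-RNR2 is lower in SKBR7.

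When PHA-767491 was added to lapatinib in Hs578T, all rRNAs and mRNAs of the mitochondrial genome rose. In the 3 co-treatment and 3 lapatinib libraries, none of which was in doubt, 20 of the 33 members tested rose and 0 fell. These were all 13 mRNAs, both rRNAs and 5 of 18 tRNAs. Over all 21814 genes tested, 18.3% were called higher and 11% lower. The median difference of the 13 mRNAs was 0.46 on the log2 scale against 0.18 over all genes, and the summed mRNA share went from 1.25% ± 0.05 to 1.65% ± 0.06 (SD, n = 3). Of 21 members listed in all 6 libraries, these 20 lay higher in every co-treatment library than in any lapatinib library, which held for 29.7% of genes listed in all 6 (18.2% lay lower).

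Complex I, which takes electrons from NADH, has 7 subunits encoded here. MT-ND6, the only mRNA on the minus strand, was at 7.49, 6.80 and 7.06 under lapatinib and at 7.95, 8.07 and 7.83 under co-treatment. Its difference was 0.83 ± 0.10 (SE, limma adjusted p = 1.17e-14), the largest of the mRNAs. All standard errors and p-values of this 6-library fit rest on the spread of genes of like level, not on the gene's own replicates. MT-ND3 was at 8.30, 7.68 and 8.02 and then at 8.76, 8.88 and 8.66, and MT-ND4L at 7.46, 7.76 and 8.17 and then at 8.72, 8.20 and 8.80. In both genes the groups did not overlap, although for MT-ND4L the closest libraries were 8.17 and 8.20. Both differed by 0.77 ± 0.09. The SD of MT-ND4L itself was 0.35 under lapatinib and 0.33 under co-treatment. MT-ND5 differed by 0.61, and MT-ND1, MT-ND2 and MT-ND4 by 0.42 to 0.46.

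Outside complex I, MT-ATP8 had the largest difference of the mRNAs and MT-CO2 the smallest. MT-ATP8, a small subunit of the ATP synthase membrane part, was at 7.42, 7.39 and 7.72 under lapatinib and at 8.31, 8.20 and 8.35 under co-treatment, a difference of 0.78 ± 0.10 (limma adjusted p = 5.79e-14). MT-ATP6, which forms part of the proton channel, differed by 0.48 ± 0.08. MT-CYB, the cytochrome b of complex III, was at 9.45, 9.32 and 9.75 and then at 9.99, 9.77 and 9.87, so the groups were separated by a narrow gap, with a difference of 0.37 ± 0.08 (limma adjusted p = 7.03e-05). MT-CO1, MT-CO2 and MT-CO3 of complex IV differed by 0.35 to 0.42. Of the rRNAs, MT-RNR2 was at 11.82, 11.44 and 11.56 and then at 12.26, 12.27 and 12.53, a difference of 0.75 ± 0.08. MT-RNR1, the small rRNA, differed by 0.42 ± 0.09.

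The tRNAs that passed had larger differences than any mRNA or rRNA. MT-TC was at 5.08, 5.25 and 5.29 under lapatinib and at 6.52, 6.61 and 6.25 under co-treatment, a difference of 1.25 ± 0.14 (limma adjusted p = 3.22e-18). MT-TY was at 2.39, 2.54 and 3.23 and then at 4.51, 4.30 and 4.27. Every co-treatment library was more than 1 log2 unit above the highest lapatinib library for MT-TY, and its difference was 1.64 ± 0.27. MT-TN differed by 1.58 ± 0.31, MT-TP by 1.30 ± 0.20 and MT-TL1 by 1.89 ± 0.52. Apart from MT-TL1 these tRNAs lie on the minus strand. MT-TT, MT-TH, MT-TL2 and MT-TE differed by 0.67 ± 0.99, 1.42 ± 1.04, -0.08 ± 0.85 and 1.73 ± 0.92, and none of them passed (limma adjusted p from 0.156 to 0.965).

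**Figure D3:**
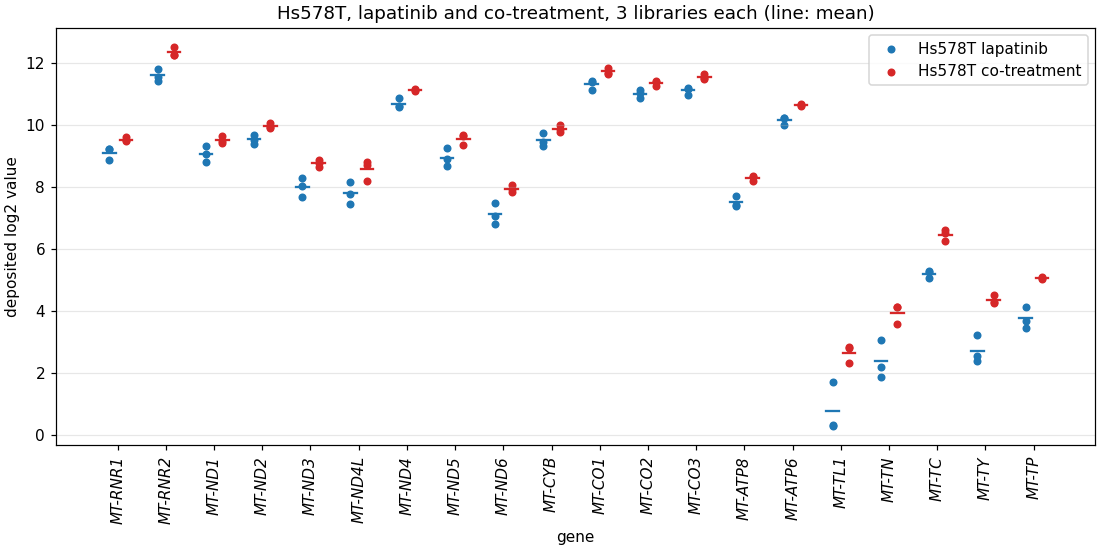
Deposited log2 values (vertical axis) of the 2 rRNAs, 13 mRNAs and 5 tRNAs (horizontal axis) in the 3 lapatinib and 3 co-treatment libraries of Hs578T, with a line at each mean. In all 20 genes the co-treatment points lie above the lapatinib points, by the most in the tRNAs.

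Of 20 members called, 20 passed in each of the 6 fits that left out 1 library. These 20 already lay apart without overlap in the same libraries, so those fits are a weak check. limma took the spread in this 6-library fit from genes of like level rather than from each gene's own replicates. Without that trend MT-TC, MT-TY, MT-TP and MT-ATP8 passed and 16 did not, with adjusted p from 0.0596 to 0.202, while 3.14% of all genes were called higher. Centring each library on its median gene left 9 (the 5 tRNAs, MT-ND3, MT-ND4L, MT-ND6 and MT-ATP8), and the background was then 12.8% higher. With all 12 Hs578T libraries in one fit, which includes those in doubt, 0 members and 0 of 22846 genes passed, and 9 of 34 members had an unadjusted p under 0.05, as did 4.15% of genes.

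Nuclear genes for mitochondrial RNA did not share one direction in this comparison. Of 16 genes for transcription and DNA maintenance, 3 rose and 1 fell, with a list median of -0.10. C10orf2, the Twinkle helicase of mitochondrial DNA, rose by 1.28 ± 0.17, SSBP1, the single-strand DNA-binding protein, by 0.52 ± 0.11, and TFAM, which packages mitochondrial DNA and activates transcription, by 0.47 ± 0.14 (limma adjusted p = 0.0041). MTERF3, known in mouse as a repressor of mitochondrial transcription, fell by 0.56 ± 0.15. POLRMT differed by 0.23 ± 0.13 and did not pass (limma adjusted p = 0.196).

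Of 27 genes for RNA processing, stability and decay, 7 rose and 6 fell. FASTKD5, needed to process mRNA ends that no tRNA flanks, rose by 1.55 ± 0.17, while FASTKD1 and FASTKD2 of the same family fell by 1.21 ± 0.23 and 0.74 ± 0.15. SLIRP rose by 0.70 ± 0.12 but its partner LRPPRC, with which it stabilises mitochondrial mRNAs, differed by -0.02 ± 0.10 (limma adjusted p = 0.893). The nuclear subunits of the respiratory chain moved as a group in the same direction as the mitochondrial ones. Of 74 tested, 61 rose and 0 fell, with a median of 0.51. ATP5I of ATP synthase rose by 1.15 ± 0.16 and NDUFB8 of complex I by 1.01 ± 0.17. Of 77 mitochondrial ribosomal protein genes, 28 rose and 4 fell, with a median of 0.20, and MRPL44 of the large subunit rose by 1.17 ± 0.15. The list counts stand against the same 18.3% higher and 11% lower over all genes.

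Against DMSO or PHA-767491, limma with 12 libraries called 0 members in Hs578T. An unadjusted p under 0.05 was found for 8 of 30 members in co-treatment against DMSO (21.8% of genes), 1 of 32 against PHA-767491 (5.36%), 3 of 28 in PHA-767491 against DMSO (7.87%) and 2 of 29 in lapatinib against DMSO (9.67%). Co-treatment lay above DMSO without overlap in 10 of the 20 members listed in all 6 libraries, where 40.7% of genes did so and 2.02% lay below. Leaving out DMSO replicate 1 made this 15 of 20, with 41.7% of genes. Co-treatment lay above PHA-767491 in 8 of 23, among them the same 5 tRNAs, with 24.2% of genes (11.9% below), and in 16 of 24 without PHA-767491 replicate 1, with 24.9%. MT-CO3 and MT-ND6 lay above DMSO under PHA-767491 (2 of 20 members, 6.08% of genes), and MT-CO3 and MT-CYB lay below DMSO under lapatinib (2 of 20, 0.0838% of genes). MT-TP, for example, was at 2.08, 4.25 and 4.53 under PHA-767491 and at 5.06, 5.09 and 5.03 under co-treatment, with no overlap. With the doubted libraries removed and the remaining ones re-ranked, 10 members passed against DMSO and 4 against PHA-767491 (24.2% and 15% of genes were called higher). For PHA-767491 and lapatinib against DMSO 0 members passed there, where 0.0492% of genes were higher and 0.205% lower for the former and 0% either way for the latter. This leaves 1 DMSO and 1 PHA-767491 library in Hs578T, each assumed to vary like the other groups.

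In SKBR7 co-treatment had higher mitochondrial mRNAs than DMSO, and the test's outcome changed with a single library of another group. The 13 mRNAs had a median difference of 0.44 against -0.46 over all genes, and 13 mRNAs, both rRNAs and MT-TS2 lay above DMSO without overlap, 16 of the 24 members listed in all 6 libraries. Only 3.19% of all genes did so, and 33.1% lay below. limma with 12 libraries called 0 members, and 3 of 36 had an unadjusted p under 0.05 (17% of genes), while 0.0666% of genes were called higher and 1.44% lower. Without lapatinib replicate 2, which belongs to neither group but enters the shared estimate of the spread, 14 rose: 12 mRNAs and both rRNAs. Then 0.533% of all genes were called higher and 6.41% lower.

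MT-CO1, the catalytic subunit of complex IV, was at 11.99, 11.93 and 11.87 under DMSO and at 12.85, 12.51 and 12.55 under co-treatment, the first of these at the ceiling. Its difference was 0.71 ± 0.44 with all libraries (limma adjusted p = 0.415) and 0.71 ± 0.07 without lapatinib replicate 2 (limma adjusted p = 2.51e-06). MT-RNR1 was at 9.36, 9.23 and 9.09 and then at 10.06, 9.75 and 9.74, a difference of 0.62. MT-ND4 differed by 0.52, MT-CO2 by 0.46 and MT-CYB by 0.25, the smallest of the mRNAs. MT-ATP8, at 7.81, 7.64 and 7.71 and then at 7.87, 8.13 and 8.31, was the mRNA that did not pass without lapatinib replicate 2 (0.38 ± 0.12, limma adjusted p = 0.0733). The tRNAs seen to rise in Hs578T were scattered here. MT-TY was at 1.73, 1.48 and 1.60 under DMSO and at -1.11, 1.36 and 2.40 under co-treatment, where the lowest value came from replicate 1, and MT-TC was at 3.65 in that replicate against 5.41 and 5.34 in the other co-treatment libraries. With every doubted library removed and the remaining ones re-ranked, 18 of 18 members tested rose, and 21.1% of genes were called higher and 21.5% lower. Those 18 are the members listed in every library, so MT-TY and MT-TL1 were not tested there. Co-treatment replicate 1, where MT-TC was low, was among the libraries removed.

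**Figure D4:**
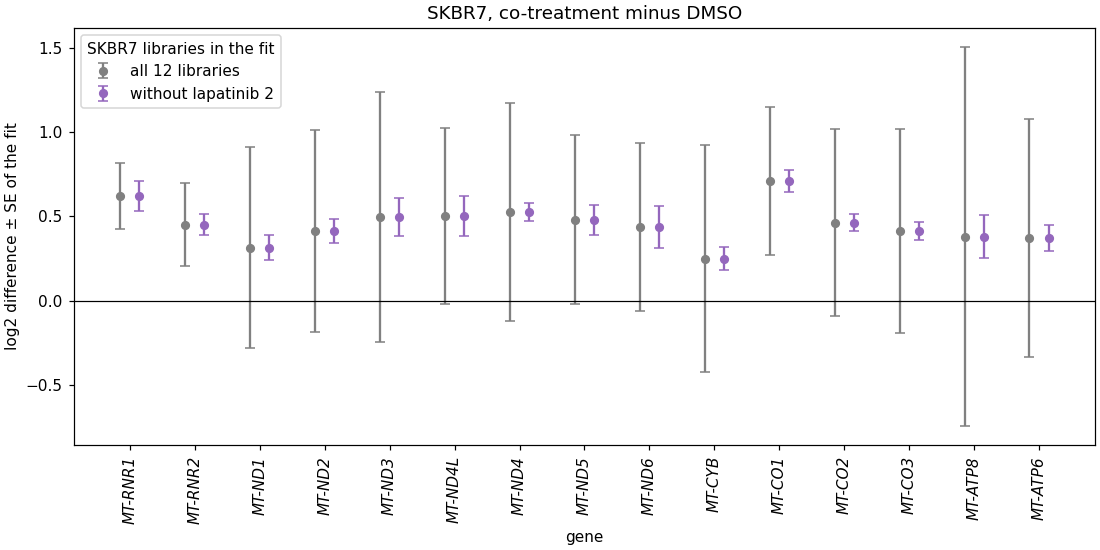
Difference between co-treatment and DMSO in SKBR7 (log2, ± SE of the fit, vertical axis) for the rRNAs and mRNAs, from all 12 libraries and from 11 without lapatinib replicate 2. The differences are the same, 0.25 to 0.71, and only the errors shrink.

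PHA-767491 lay above DMSO without overlap in 9 of 23 members, all mRNAs, where 2.59% of all genes did, and limma called 0 (1 of 35 with an unadjusted p under 0.05, against 2.09% of genes). Co-treatment lay above PHA-767491 without overlap in 9 mRNAs and both rRNAs, where 3.09% of genes did. limma called 0 members there (3 of 36 with an unadjusted p under 0.05, against 10.4% of genes, and 0.018% of genes higher and 0.413% lower), and 7 without lapatinib replicate 2, where 0.229% of genes were called higher. With every doubted library removed 18 of 18 members rose, where 18.6% of genes did and 19.8% were lower. The mRNA share of the summed values was 1.48% ± 0.03 under DMSO, 1.78% ± 0.04 under PHA-767491 and 2.45% ± 0.47 (SD, n = 3) under co-treatment, where replicate 1 was at 2.99% and the others at 2.20% and 2.16%. Nuclear subunits of the respiratory chain differed by a median of 0.09 between co-treatment and DMSO, and mitochondrial ribosomal proteins by -0.25, with 0 genes of either list called by limma (0 and 4 with an unadjusted p under 0.05).

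SKBR7 lapatinib replicate 2 stood far from the other lapatinib libraries in the mitochondrial mRNAs. MT-ATP8 was at 7.88, 0.76 and 8.13 in the 3 libraries, MT-ND3 at 7.80, 3.12 and 7.85, and MT-CO1 at 12.09, 9.37 and 12.28. All 13 mRNAs were lower in replicate 2, with differences of -2.82 to -7.24 on the log2 scale (median -3.83) from the mean of the other lapatinib libraries, while MT-RNR1 and MT-RNR2 differed by -1.02 and -1.50. Over all 16319 genes with a value in each lapatinib library the median was -0.83. Over the 3615 genes with a mean over 6 in the other lapatinib libraries it was -0.47, a choice of genes made from those other libraries. Nuclear respiratory chain genes differed by a median of -0.64 and cytosolic ribosomal protein genes by -0.38. The mRNA share of the summed values was 0.201% in this library, against 1.95% or more in the other lapatinib libraries. It listed 18021 genes, against 20287 and 23282 in the others, and the part of depth in its low values was not tested.

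With replicate 2, the 13 mRNAs had a median difference of -0.91 between lapatinib and DMSO, limma called 0 members (3 of 36 with an unadjusted p under 0.05, against 2.3% of genes), and the groups overlapped for all 18 members listed in all 6 libraries (0.1% of genes lay higher and 8.08% lower). Replicate 2 was set apart for its low values of these same mRNAs, so results without it are not independent support for a rise. Without replicate 2 the median was 0.39. All 13 mRNAs and both rRNAs then lay above DMSO without overlap, as did MT-TV (like MT-TS2, named after its values were seen), 16 of 24 members, where 2.62% of genes did. MT-CO2 (0.38 ± 0.05) and MT-ND4 (0.40 ± 0.06) were then the only genes of 22531 to pass in limma, 0.00888% of them (both adjusted p = 0.0261). MT-CO1, MT-ND4 and MT-RNR1 lay above lapatinib under co-treatment without overlap, with replicate 2 (3 of 18 members, 3.33% of genes) and without it (3 of 23, 3.9%). For co-treatment against lapatinib the median was 1.32 with replicate 2 and 0.10 without it. limma called 0 members with it (0.164% of genes higher and 0.57% lower), though 16 of 37 had an unadjusted p under 0.05 (2515 of 21932 genes), and only MT-CO1 without it, where 0.291% of genes were called higher. C10orf2 and FASTKD5, which rose in Hs578T, rose here also with all 12 libraries, by 1.19 ± 0.22 and 1.39 ± 0.30 (limma adjusted p = 0.0128 and 0.0302). With every doubted library removed they rose by 1.27 ± 0.10 and 1.05 ± 0.10, but neither passed without the variance trend (limma adjusted p = 0.267 and 0.285) or without co-treatment replicate 2 (0.0679 and 0.122). With the compared groups alone C10orf2 did not pass (limma adjusted p = 0.199), and FASTKD5 also missed without DMSO replicate 3, PHA-767491 replicate 3 or co-treatment replicate 3 (0.059 to 0.0607). TFAM differed by 0.19, LRPPRC by 0.57 and POLRMT by -0.22, and none of these passed.

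**Figure D5:**
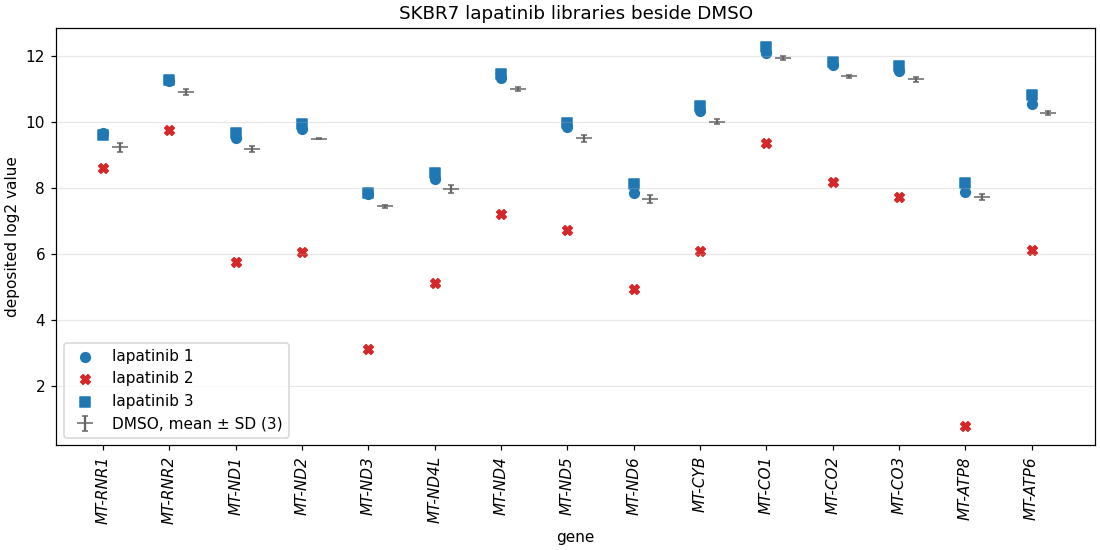
Deposited log2 values (vertical axis) of the rRNAs and mRNAs in the 3 lapatinib libraries of SKBR7 beside the mean ± SD of its 3 DMSO libraries. Replicate 2 is lower than the others in all 15 genes, most in MT-ATP8 at 0.76, and replicates 1 and 3 lie above DMSO.

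Whether the lines respond differently to adding PHA-767491 to lapatinib was tested as the difference of the 2 effects over all 24 libraries. limma called 0 of 34 members (0 with an unadjusted p under 0.05, against 1.9% of genes) and 0 of 19168 genes, with a median of -0.92 for the 13 mRNAs and 0.21 over all genes. Without SKBR7 lapatinib replicate 2 these medians were 0.51 and 0.43, still with 0 called. Removing every doubted library and re-ranking the remaining ones, 12 of 18 members had a larger effect in Hs578T, where 9.15% of genes did, among them MT-RNR2 (0.63 ± 0.15, limma adjusted p = 0.00534) and MT-ND6 (0.62 ± 0.18, limma adjusted p = 0.0215). MT-CO1 differed by 0.05 ± 0.11 and did not pass.

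Under lapatinib the lines themselves differed in MT-RNR2, which was at 11.82, 11.44 and 11.56 in Hs578T and at 11.23, 9.74 and 11.26 in SKBR7, and in MT-TC, at 5.08, 5.25 and 5.29 against 4.23, 1.68 and 4.59. Both were higher in Hs578T without overlap, as were 25.5% of genes, and passed in limma (adjusted p = 0.0131 and 0.0248), as did 13.4% of genes in that direction and 8.64% in the other. With SKBR7 lapatinib replicate 2 left out the same number, 2 members, were higher, and 14 were lower in Hs578T, with a median of -0.56 for the 13 mRNAs against 0.68 with it (17.5% of genes were then called higher and 18.2% lower).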

How the data were processed

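RNA was sequenced from 24 libraries of Hs578T and SKBR7 cells with a stranded mRNA kit. The authors counted read pairs per gene with featureCounts 1.4.6, scaled the counts by TMM in edgeR and deposited quantile-normalised log2 values. Genes without a value in a library are empty cells. The labels name HiSat2 and the methods STAR as the aligner. Quantile normalisation gives all libraries one distribution, so high genes are capped and shares are compressed. A table of group averages and of the authors' own differences between treatments was not used. Of 36517 lines, 36 repeated identifiers were left out.

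Each gene listed in at least 3 libraries of a fit was tested two-sided by a linear model with moderated variances and a mean-variance trend (limma 3.58.1, R 4.3.3), with Benjamini-Hochberg adjustment over all genes tested at 0.05. No value was filled in. Each line was fitted over its 12 libraries, and Hs578T co-treatment against lapatinib also over its 6. Alternatives were filters, filling of missing values, a replicate block, the compared groups alone, centring, no trend, ranking anew and leaving out each library. Groups came from the labels. The code was tested on simulated data.

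The set of genes and the gene lists were chosen with earlier results of these data known, although the rule for members reads names alone. All mRNAs and rRNAs were to be named, and tRNAs listed in at least 18 libraries, passing a test, or highest or lowest. From each nuclear list at most 4 passing genes were to be named, with POLRMT, TFAM and LRPPRC always. Depth in reads is unknown. Figures and tables used Python 3.11.15, pandas 2.3.3, numpy 2.4.6 and matplotlib 3.10.9.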

Additional observations from a re-analysis of the deposited data

How the results depend on the processing

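Counts of members called higher moved by over 1.5 times under these settings. With the compared groups alone the counts were 20 for Hs578T co-treatment against lapatinib (18.3% of genes higher), and in SKBR7 14 for co-treatment against lapatinib (0.151%), 7 against PHA-767491 (0.137%), 9 against DMSO (0.25%) and 1 for PHA-767491 against DMSO (0.112%). Without the doubted libraries and re-ranked, with 18 members tested, the Hs578T co-treatment counts were 18 (lapatinib, 31.7% of genes higher), 4 (PHA-767491, 15%) and 10 (DMSO, 24.2%). Those in SKBR7 were 4 (17.7%), 18 (18.6%) and 18 (21.1%) in that order, with 6 for PHA-767491 against DMSO (1.62%) and 8 for lapatinib against DMSO (0.0902%). The difference between lines gave 12 (9.15%), and 14 members were then lower in Hs578T than in SKBR7 under lapatinib (32.8% of genes lower). Re-ranking all libraries gave 8 (10.1% of genes higher), 4 (14.4%) and 4 (13.9%) for the Hs578T co-treatment comparisons, 2 for SKBR7 co-treatment against lapatinib (12.2%), 2 against DMSO (9.86%) and 1 for the lines under lapatinib (22.8%). In the 6 Hs578T libraries, centring on the median gene gave 9 (12.8%), centring on ribosomal protein genes 10 (9.21%) and no variance trend 4 (3.14%). Centring on ribosomal protein genes gave 1 for SKBR7 co-treatment against DMSO (0.311%). Members higher in Hs578T than SKBR7 under lapatinib numbered 0 with that centring (12%), 0 without the trend (7.4%) and 1 with genes listed in every library (16%). The cause was not tested. Counts of genes without overlap that left out a library, and the settings for C10orf2 and FASTKD5, were added after seeing the data.

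Leaving out each library in turn gave 0 to 1 members higher for Hs578T co-treatment against lapatinib over 12 libraries, 0 to 5 against DMSO, 0 to 3 for PHA-767491 and 0 to 3 for lapatinib against DMSO, and 20 in every 6-library fit. The 5, 3 and 3 came without Hs578T DMSO replicate 3, when only the doubted DMSO replicates 1 and 2 were left. In SKBR7 leaving out a library gave 0 to 1 for co-treatment against lapatinib, 0 to 7 against PHA-767491, 0 to 14 against DMSO and 0 to 2 for lapatinib against DMSO. Each of these highest counts came without lapatinib replicate 2, where 0.291%, 0.229%, 0.533% and 0.00888% of genes were called higher in that order. For the lines under lapatinib, leaving out a library gave 1 to 9 higher and 0 to 14 lower. The 14 came without SKBR7 lapatinib replicate 2, where 18.2% of genes were called lower. Shares over all genes are not given for the other fits, so their counts are not set against a background.

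The median of the mRNAs changed sign for Hs578T co-treatment and PHA-767491 against DMSO when centred on the median gene (-0.76 and -0.73). It did so for SKBR7 lapatinib against DMSO without the doubted libraries (0.42) or lapatinib replicate 2 (0.39), for the difference between lines (0.45 and 0.51) and for the lines under lapatinib (-0.55 and -0.56). Leaving out each library in turn, it reached -1.58 for SKBR7 lapatinib against DMSO, -1.57 for the difference between lines and 1.41 for the lines under lapatinib, each without lapatinib replicate 3. Of 137 counts under other settings 109 moved less than 1.5 times, as did 148 of 162 that left out a library. In most comparisons the main count was 0, and a 0 that stayed 0 is among the unmoved counts. These tallies therefore say little about stability.

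Replicate numbers were not taken to pair the samples. After each group's mean was subtracted, same-numbered libraries correlated at -0.45 to 0.37 in Hs578T and -0.38 to 0.59 in SKBR7. Differently numbered ones correlated at -0.40 to 0.50 and -0.54 to 0.44. With groups of 3 this check cannot exclude a pairing. With a replicate block 20 members were called higher in the 6 Hs578T libraries (12.5% of genes) and 3 between the lines under lapatinib (16.7% of genes).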

Other observations

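Nuclear copies of mitochondrial genes can share reads with their sources. The table holds 36 such genes, 13 of them listed in at least 20 libraries. MTATP6P1 on chromosome 1 is identical to MT-ATP6 at 98.5% of 681 bases and MTND2P28 to MT-ND2 at 98.2%, while MTND5P11 on chromosome 5 is identical to MT-ND5 at 93.0%. MTATP6P1 was the highest of them, at 7.41, 6.91 and 7.27 in the Hs578T lapatinib libraries, where MT-ATP6 was at 10.23, 9.99 and 10.23. In Hs578T co-treatment against lapatinib (6 libraries), 7 of 17 copies tested were called higher by limma and 0 lower, with a median difference of 1.09. Over all genes tested 18.3% were higher and 11% lower, with a median of 0.18. MTND2P28 differed by 1.15 ± 0.18 where MT-ND2 differed by 0.42 ± 0.08. How many reads the copies and the mitochondrial genes share was not tested.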
